A study of Homo sapiens with 9 samples.

Results

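RNA of 6 libraries was compared, 3 from MEG-01 cells treated with As2S2 (arsenic disulfide) and 3 from control cells without it, out of 9 libraries in the series. They were chosen by their treatment label, and every gene of the table that sets these treatments side by side entered the comparison. Of 63241 genes listed, 35736 had 0 counts in all 6 libraries, and 14023 had enough counts to be tested. MEG-01 is a human megakaryoblast line of bone marrow origin, established from chronic myeloid leukaemia in blast crisis, so all samples share the lesions of 1 leukaemia. The organism field of control replicate 1 does not read human, unlike that of the other libraries, while its cell line and title match its group. The labels give neither a dose nor a time of treatment, and name no solvent for the control. They do not say whether the replicates were separate cultures, so the p-values speak only to the scatter among these libraries, whose source may be technical. The question behind the series is whether As2S2 drives megakaryocytes to differentiate by way of the kinases SRC, MEK and ERK.

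Trivalent arsenic binds the thiol groups of proteins. Cells are known to answer it through several sensors. MTF1 is a zinc-dependent factor that drives metallothioneins and zinc exporters from metal response elements. NRF2, freed from its inhibitor KEAP1, drives genes for glutathione synthesis, quinone reduction and iron storage from antioxidant response elements, and HSF1 drives chaperones when proteins misfold. Megakaryocytes mature by growing large, by building the receptors and granules of platelets and by extending proplatelets on a tubulin and actin scaffold.

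The promoters of the metallothioneins and zinc exporters are shown because these genes gave some of the highest fold changes. The sequences are those of RefSeq (GRCh38.p14), 250 bases up to the start of transcription on the strand of the gene. Capitals mark the core of the metal response element, searched as TGCACNC or TGCGCNC on both strands.

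MT2A (chr16:56608334-56608583, plus strand): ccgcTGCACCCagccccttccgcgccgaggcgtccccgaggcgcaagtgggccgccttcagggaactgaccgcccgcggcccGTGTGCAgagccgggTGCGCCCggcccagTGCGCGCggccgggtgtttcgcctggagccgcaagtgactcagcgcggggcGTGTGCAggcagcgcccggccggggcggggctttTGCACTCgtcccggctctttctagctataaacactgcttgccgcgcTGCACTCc
MT1X (chr16:56682220-56682469, plus strand): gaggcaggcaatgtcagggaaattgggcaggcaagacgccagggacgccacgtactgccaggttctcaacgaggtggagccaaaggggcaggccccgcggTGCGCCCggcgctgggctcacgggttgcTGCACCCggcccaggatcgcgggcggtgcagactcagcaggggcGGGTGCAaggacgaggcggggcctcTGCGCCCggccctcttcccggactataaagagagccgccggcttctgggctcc
MT1H (chr16:56669564-56669813, plus strand): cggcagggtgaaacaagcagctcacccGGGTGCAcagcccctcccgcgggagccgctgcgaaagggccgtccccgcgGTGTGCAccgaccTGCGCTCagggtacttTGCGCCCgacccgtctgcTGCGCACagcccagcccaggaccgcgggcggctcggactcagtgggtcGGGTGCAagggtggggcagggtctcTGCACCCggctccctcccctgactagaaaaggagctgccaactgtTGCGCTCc
SLC30A1 (chr1:211579162-211579411, minus strand): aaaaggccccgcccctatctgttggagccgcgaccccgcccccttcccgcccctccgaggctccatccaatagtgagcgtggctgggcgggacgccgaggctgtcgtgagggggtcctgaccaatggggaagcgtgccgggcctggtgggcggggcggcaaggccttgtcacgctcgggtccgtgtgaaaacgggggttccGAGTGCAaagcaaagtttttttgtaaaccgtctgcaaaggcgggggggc
SLC30A2 (chr1:26046119-26046368, minus strand): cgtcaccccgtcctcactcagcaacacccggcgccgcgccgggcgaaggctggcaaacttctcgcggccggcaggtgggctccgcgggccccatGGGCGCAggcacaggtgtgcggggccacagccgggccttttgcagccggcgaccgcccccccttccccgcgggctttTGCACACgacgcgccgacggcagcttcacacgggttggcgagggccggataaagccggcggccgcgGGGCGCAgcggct

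With the first 50 transcribed bases added, the windows of MT2A, MT1X and MT1H held 8, 4 and 8 matches. Those of SLC30A1 and SLC30A2 held 2 and 3. Of the promoters of 10381 tested genes with an entry, 38.9% held at least 1 match and 3.28% held 3 or more. A single match was therefore common, whereas MT2A, MT1X, MT1H and SLC30A2 belonged to the few promoters with 3 or more. Among genes called higher, 37.7% held the motif. Entries were found for 3 of the 6 tested metallothioneins.

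A gene was called where its adjusted p was under 0.05 (quasi-likelihood test of edgeR, Benjamini-Hochberg over all tested genes). With As2S2, 2391 genes (17.1%) were higher and 2655 (18.9%) lower, 36.0% in all. The libraries of the groups did not overlap for 3072 genes that were higher (21.9%) and 3483 that were lower (24.8%). Most changes were small: 556 rose and 513 fell by at least 1 on the log2 scale. The direction leaned upwards as size grew, with 118 higher against 55 lower at 2 or more and 42 against 9 at 3 or more. The median over all tested genes was -0.02. Abundant genes were called more often in the upward direction. Of the 1632 genes at 100 CPM (counts per 1e6 counts of a library, its total scaled by TMM) or more, 30.8% rose and 16.1% fell, against 13% and 24.1% of the 3718 genes between 5 and 20 CPM. The 1368 genes under 1 CPM leaned upwards as well, with 13.7% higher and 8.26% lower. Over all genes called higher, 87440 CPM were gained, and over all genes called lower the change was -44030 CPM. TMM factors were 0.989 to 1.047 in control and 0.9658 to 0.9968 with As2S2, so scaled totals differ between groups. These sums are therefore not shares of all counts, and the excess of gain over loss depends on that scaling. The ferritin light chain FTL gained the most, 6841 CPM, followed by the heavy chain FTH1 with 3796 and the metallothionein MT2A with 1908. Of the protein-coding genes 17.7% rose and 19.5% fell, and of the long noncoding RNAs 14.1% and 17.9%.

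**Figure D1:**
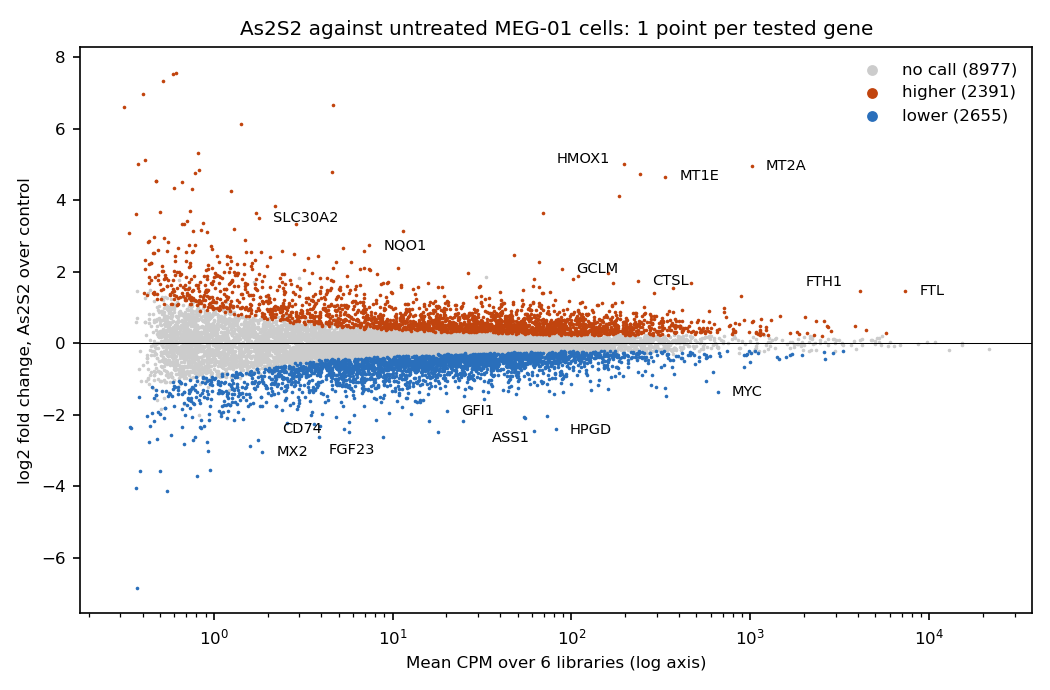
Each point is 1 of the 14023 tested genes, with its mean CPM over the 6 libraries (log axis) against its log2 fold change with As2S2, coloured by call. HMOX1 and MT2A stand near the top at 5.01 and 4.95, and FTL, at 1.46, lies farthest to the right of the labelled genes.

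Totals ran from 18.68 to 20.37 in units of 1e6 counts. Within each group 1 library was unlike its fellows, replicate 2 of the control and replicate 1 of As2S2. The chi-square per gene between pairs of a group was 12.5 to 15.8 where a pair held such a library, 3.53 for control replicates 1 and 3 and 2.53 for As2S2 replicates 2 and 3. Principal component 1 (63.0% of the variance of log2 CPM) separated the treatments. Component 2 (14.4%) ran from -28.1 in control replicate 2 to 18.6 in As2S2 replicate 1. Without these libraries, 3789 genes were higher and 3730 lower, and 4694 of the 5046 calls were made again in the same direction. The libraries that then remain differ on component 2 by group as well (16.3 and 9.88 in control, -6.26 and -10.3 with As2S2), so that setting cannot tell the treatment from this split. The 13 protein-coding transcripts of the mitochondrial genome took 6.21% to 6.47% of the counts in control and 5.90% to 6.46% with As2S2.

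Of 12 metallothioneins 5 had counts in every library and rose. MT1H, tested as well, passed the count filter only through the As2S2 libraries. They bind zinc, copper and arsenic through clusters of cysteines. MT2A (ENSG00000125148) stood at 60.3, 72.9 and 58.0 CPM in control replicates 1 to 3 and at 1745, 2058 and 2112 with As2S2. This is a 30.9-fold rise (log2 4.95 ± 0.12, SE; adjusted p = 7.67e-13, edgeR; n = 3 each here and below). MT1E went from 27.0, 25.8 and 24.6 to 581, 674 and 670 CPM, and MT1X from 15.96, 21.5 and 15.3 to 427, 488 and 487. In each case every treated library lay far above every control library. Together the family took 0.0131% to 0.0153% of the counts in control and 0.317% to 0.365% with As2S2. MT1G rose by 4.11 and MT1F by 3.64 on the log2 scale. MT1H held 1 count over the control libraries and 41 with As2S2, a ratio of 42.2 (exact Poisson 95% interval 7.16 to 1710, counting error only). The remaining 6 members (MT1A, MT1B, MT1M, MT3, MT4 and MT1HL1) held at most 1 count in either group.

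The genes on either side of the metallothionein cluster differed little between groups. In the order of the RefSeq annotation, NUDT21, OGFOD1 and BBS2 lie ahead of the metallothioneins, and the nuclear pore gene NUP93 behind them. NUDT21, a cleavage factor of polyadenylation, rose by 0.30 ± 0.09 (adjusted p = 0.0133, edgeR). With control replicate 3 left out, its adjusted p was 0.0582. OGFOD1 (0.10), BBS2 (-0.15) and NUP93 (0.03) were not called. Within the cluster, genes with strong responses stood beside silent ones: MT1M, MT1A and MT1B, between MT1E and MT1F, held 0 to 1 counts per group with and without As2S2. Metallothionein copies resemble each other, and estimated counts can share reads out between them. MT2A, MT1E and MT1F had whole counts in all 6 libraries, and MT1X and MT1G in 4.

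**Figure D2:**
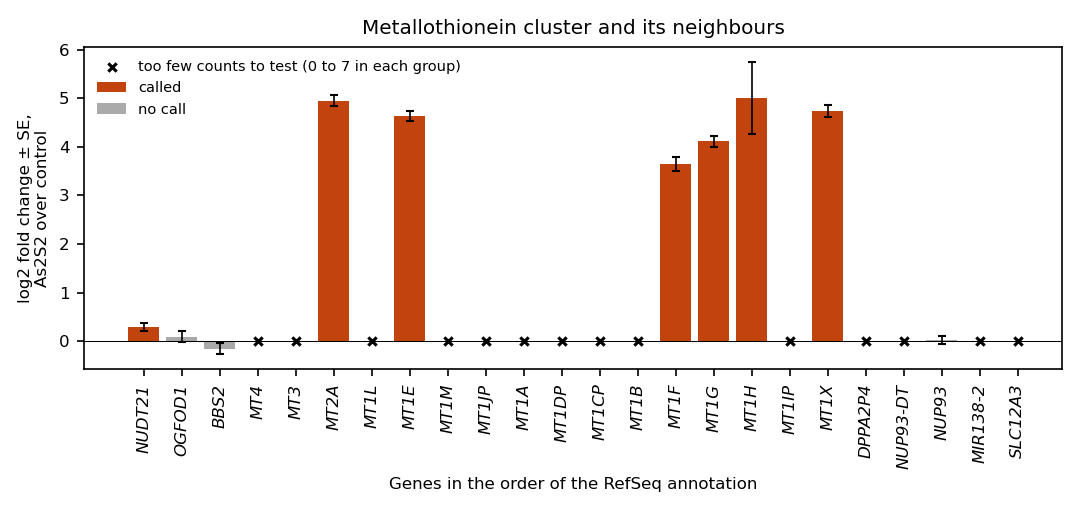
Log2 fold change with As2S2 (bars, ± SE) for genes around the metallothionein cluster, in annotation order; crosses mark genes with 0 to 7 counts in each group. The 6 tested metallothioneins stand between 3.64 and 5.003, and their neighbours between -0.15 and 0.30.

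Of 19 tested genes of the zinc transporter list 4 rose and 4 fell (21.1% each), near the 17.1% and 18.9% of all genes. SLC30A1, which exports zinc across the plasma membrane, went from 14.9, 13.7 and 15.1 to 88.7, 74.2 and 78.2 CPM (2.46 ± 0.11, adjusted p = 2.09e-09, edgeR). SLC30A2, which loads zinc into vesicles, went from 0.348, 0.325 and 0.188 to 2.20, 3.38 and 4.31 CPM (3.50 ± 0.37). Like MT1H, SLC30A2 passed the count filter only through the As2S2 libraries. Among importers, SLC39A10 fell by 0.95 and SLC39A14 by 0.46, SLC30A9, a mitochondrial transporter, fell by 0.77, whereas SLC39A7, which releases zinc from the endoplasmic reticulum, rose by 0.66. MTF1 itself stood at 24.1, 16.7 and 21.6 CPM against 22.8, 17.2 and 19.98, and was not called (-0.06). The copper transporters ATP7B and ATP7A changed by -0.74 and -0.67, and the copper chaperone ATOX1 by 0.45. The call of ATP7A was lost without control replicate 1 or 3 or As2S2 replicate 2 or 3 (adjusted p up to 0.126).

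Of 11 tested genes for arsenic uptake, methylation and export 4 rose and 3 fell (36.4% and 27.3%, against 17.1% and 18.9% of all genes). AS3MT, the main arsenic methyltransferase, held 0 counts in control and 1 with As2S2, and the channel AQP9 2 and 2, so these counts were too few to show a difference. N6AMT1, also described as an arsenic methyltransferase, fell by 0.94 ± 0.14 (11.0, 11.3 and 12.6 to 6.07, 6.45 and 5.68 CPM). The channel AQP3 rose by 0.52 and the phosphate carrier SLC20A2 fell by 0.51. PML, the nuclear body protein that arsenic trioxide binds, stood at 47.5, 57.0 and 44.8 against 48.4, 55.5 and 62.2 CPM and was not called (0.16).

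The NRF2 list rose in 16 of 28 tested members and fell in 4 (57.1% and 14.3%, against 17.1% and 18.9% of all genes). Its median log2 fold change was 0.54 (that of all genes was -0.02). HMOX1 (ENSG00000100292), which breaks down haem, stood at 11.6, 13.2 and 10.7 CPM in control and at 333, 405 and 402 with As2S2. The rise was 32.2-fold (5.01 ± 0.12, adjusted p = 7.67e-13, edgeR). Quinone and carbonyl reductases followed: NQO1 went from 1.99, 1.90 and 1.88 to 13.5, 13.6 and 11.5 CPM, AKR1C3 rose by 2.26 and AKR1B1 by 1.61. AKR1C3 had whole counts in 2 of 6 libraries and AKR1B1 in 0. Pirin, PIR, an iron-binding nuclear protein, rose by 2.10. The NRF2 gene itself, NFE2L2, fell by 0.38 ± 0.09 (58.6, 55.9 and 58.6 to 44.8, 44.9 and 43.2 CPM), and KEAP1 was not called (0.12). The count of members that fell was 1 without control replicate 1 or As2S2 replicate 2, and 2 without control replicate 3 or As2S2 replicate 3.

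Glutathione genes did not move together: 10 of 28 rose and 5 fell (35.7% and 17.9%, against 17.1% and 18.9% of all genes). GCLM, which tunes the enzyme at the limiting step of glutathione synthesis, went from 35.4, 32.1 and 34.7 to 151, 135 and 141 CPM (2.06 ± 0.09, adjusted p = 2.09e-09, edgeR). Its catalytic partner GCLC stood at 44.4, 32.9 and 45.0 CPM in control and 43.0, 35.2 and 37.1 with As2S2, with overlapping groups and no call (-0.09). The cystine carrier SLC7A11 was not called either (0.29). GSTM3 and MGST3, which conjugate glutathione, rose by 1.16 and 1.08, and the peroxidase GPX1 fell by 0.92. In the thioredoxin list 8 of 21 rose and 1 fell (38.1% and 4.76%). PRDX1 went from 458, 487 and 492 to 937, 957 and 945 CPM, and superoxide dismutase SOD1 from 402, 422 and 403 to 796, 755 and 750. GPX1 and PRDX1 had whole counts in no library. Of 14 genes of the pentose phosphate route and NADPH supply 4 rose and 4 fell (median -0.02), with PGD (0.73), TALDO1 (0.60) and TKT (0.43) among the former and MTHFD1 (-0.55) and IDH1 (-0.45) among the latter.

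The promoter of GCLM is shown because it carries the antioxidant response element core, searched as TGACNNNGC on both strands (capitals).

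GCLM (chr1:93909431-93909680, minus strand): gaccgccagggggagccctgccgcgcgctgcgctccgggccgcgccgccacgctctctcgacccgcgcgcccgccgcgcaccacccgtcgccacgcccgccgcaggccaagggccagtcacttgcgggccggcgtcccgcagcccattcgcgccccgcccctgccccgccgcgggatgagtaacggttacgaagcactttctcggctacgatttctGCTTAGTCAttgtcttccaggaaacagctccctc

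The match lies 34 to 26 bases before the start. The motif stood in 5 of the 23 promoters of the NRF2 list that had an entry and in 15.3% of all promoters. The window held no match for NQO1, SQSTM1, FTL and SRXN1.

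Iron storage rose while iron and haem genes as a list went both ways, 7 of 28 up and 10 down. These are 25% and 35.7%, against 17.1% and 18.9% of all genes. FTL went from 3515, 4596 and 3615 to 9342, 11630 and 11280 CPM (1.46 ± 0.11, adjusted p = 3.80e-07, edgeR). FTH1 went from 2027, 2493 and 2070 to 5563, 6162 and 6252 (1.45 ± 0.09), but had whole counts in only 1 of 6 libraries, and its level is uncertain where reads are shared with its pseudogenes. The list took 0.723% to 0.859% of the counts in control and 1.67% to 1.93% with As2S2. ALAS1, the housekeeping start of haem synthesis, rose by 0.72. The iron uptake receptor TFRC rose by 0.59 ± 0.14 and its relative TFR2 fell by 1.08 ± 0.12. The iron exporter SLC40A1 fell by 0.75.

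Many heat shock proteins and proteasome subunits rose. Of 29 heat shock genes 19 rose and 1 fell (median 0.43), whereas of all 37 DnaJ co-chaperones 6 rose and 9 fell (median -0.06) and of 8 chaperonin subunits 1 rose and 1 fell (3 fell without As2S2 replicate 1). Of 33 proteasome subunits 22 rose and 0 fell (median 0.43). Of the 46 tested genes whose symbol begins with PSM, assembly factors and the immunoproteasome included, 21 rose and 3 fell (median 0.22), and 5 fell without As2S2 replicate 1. PSMD2, a scaffold of the proteasome cap, went from 165, 170 and 154 to 269, 304 and 303 CPM (0.84 ± 0.08, adjusted p = 6.06e-06, edgeR), and the cap's ubiquitin receptor ADRM1 rose by 0.91. The 11 subunits of that list of 33 that were not called lay between -0.18 and 0.25. Of 21 ubiquitin genes 9 rose and 1 fell, though 5 rose without As2S2 replicate 3. Polyubiquitin UBB, with whole counts in no library, went from 819, 951 and 880 to 1408, 1374 and 1415 CPM. NPLOC4 and UFD1, cofactors of the segregase VCP, rose by 0.88 and 0.67. Among chaperones HSPA1A rose by 1.06 ± 0.09, with whole counts in no library, and its near copy HSPA1B by 0.65. HSPH1 rose by 1.01, and BAG3 by 1.05. HSPA8 was the most abundant riser of the list, from 1058, 976 and 1006 to 1991, 1387 and 1376 CPM, with As2S2 replicate 1 well above the others. The mitochondrial chaperone HSPA9 fell by 0.42. HSF1 was not called (-0.09). The core of the heat shock element, searched as GAANNTTC or TTCNNGAA, stood in 10 of 26 promoters of the heat shock list and in 1040 of all 10381 promoters.

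The endoplasmic reticulum did not share this rise. Of 22 chaperones and sensors of that compartment 1 rose and 7 fell, against 17.1% and 18.9% of all genes, with 3 up without control replicate 2. ERN1, the sensor also known as IRE1, went from 65.3, 58.6 and 58.7 to 29.8, 33.3 and 33.2 CPM (-0.92 ± 0.10), SEL1L fell by 0.81 and HSPA5 by 0.35. Targets of ATF4, a factor of the amino acid stress response, were lower for 10 of 26 genes and higher for 3. The number that rose was 5 without control replicate 2 or As2S2 replicate 1. TRIB3 went from 212, 273 and 207 to 105, 133 and 126 CPM, and DDIT4 fell by 0.51.

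The vacuolar proton pump that acidifies lysosomes rose in 12 of 17 subunits and fell in 0, with a median of 0.53. ATP6V0D1, in its membrane sector, went from 34.9, 43.2 and 35.6 to 78.7, 89.4 and 85.7 CPM (1.16 ± 0.11, adjusted p = 2.34e-06, edgeR), and ATP6V1H rose by 0.76. Of 36 lysosomal hydrolases and membrane proteins 13 rose and 7 fell (36.1% and 19.4%, against 17.1% and 18.9% of all genes, median 0.05). The share that fell was thus near that of all genes. The protease CTSL went from 105, 106 and 116 to 365, 358 and 367 CPM, a log2 rise of 1.74 ± 0.08. LAPTM4B, a lysosomal membrane protein, rose by 0.75. Of 40 autophagy genes 14 rose and 4 fell (35% and 10%), the latter 7 without control replicate 2. The receptor SQSTM1 rose by 1.53 (whole counts in 0 of 6 libraries), its fellow receptor OPTN by 0.91 and the starting kinase ULK1 by 0.82. PINK1, the kinase that marks damaged mitochondria, rose by 1.16 ± 0.11.

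**Figure D3:**
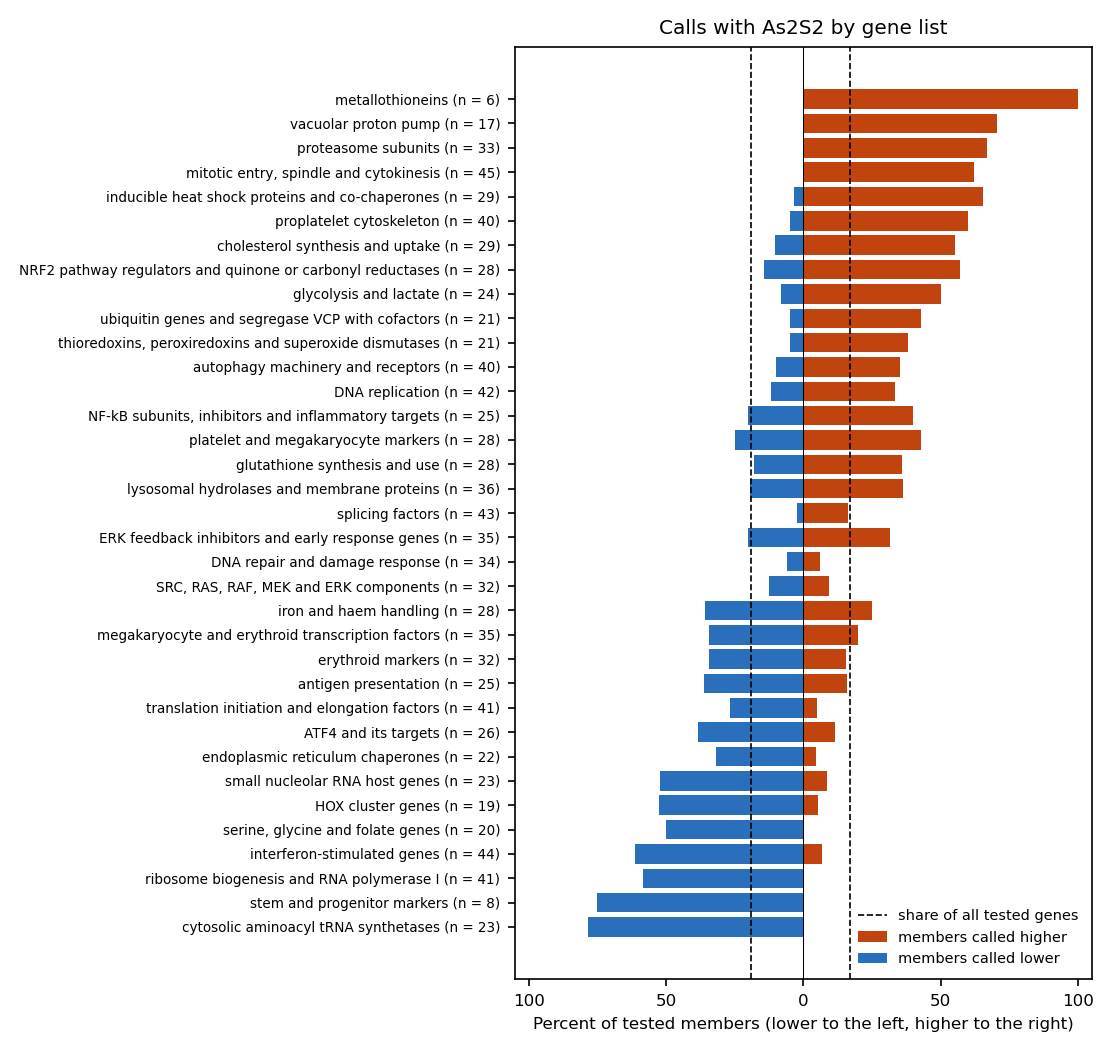
Share of the tested members of 35 gene lists called higher (right) and lower (left) with As2S2; dashed lines mark 17.1% and 18.9%, the shares of all tested genes. The lists of metallothioneins, vacuolar pump, proteasome subunits and mitosis genes had no member called lower, and tRNA synthetases, ribosome biogenesis, stem markers and serine, glycine and folate genes none called higher.

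Of 40 genes of the proplatelet cytoskeleton 24 rose and 2 fell (median 0.54). TUBA1A went from 40.0, 49.0 and 47.0 to 145, 164 and 165 CPM (1.80 ± 0.10, adjusted p = 1.96e-08, edgeR). TUBA4A, TUBB2A and TUBB6 rose by 1.87, 1.44 and 1.14. Tubulin genes are near copies, and these 4 had whole counts in no library. The myosin light chain MYL6 went from 494, 524 and 496 to 1195, 1327 and 1283 CPM. Beta and gamma actin, ACTB and ACTG1, rose by 0.62 and 0.72. The intermediate filament VIM fell from 747, 863 and 752 to 452, 444 and 460 CPM (-0.80 ± 0.08).

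Platelet and megakaryocyte markers rose in 12 of 28 tested cases and fell in 7 (42.9% and 25%, against 17.1% and 18.9% of all genes). Their median was 0.06, and 10 of the 38 in the list had too few counts. Bulk RNA cannot tell fewer cells of a kind from less RNA per cell. ITGB3 went from 86.1, 79.3 and 82.9 to 132, 146 and 153 CPM (0.80 ± 0.09, adjusted p = 1.21e-05, edgeR), whereas its partner ITGA2B went from 748, 826 and 710 to 516, 634 and 638 (-0.35 ± 0.09, adjusted p = 0.00974). Thromboxane synthase, TBXAS1, rose from 10.04, 11.7 and 10.6 to 38.9, 40.4 and 45.9 CPM. The platelet chemokine PPBP held 34 counts in control and 122 with As2S2 (1.95 ± 0.39). The small GTPase RAB27B of granule release rose by 2.71 ± 0.41 from under 0.4 CPM. PPBP and RAB27B passed the count filter only through the As2S2 libraries. CAVIN2, a caveolar protein of platelets, fell from 39.0, 34.2 and 39.1 to 17.4, 15.8 and 14.7 CPM. GP1BA rose by 0.51, a call lost without As2S2 replicate 2 (adjusted p = 0.0784) or 3 (0.0656). Members called lower were 4 without control replicate 3 or As2S2 replicate 3. Platelet markers differed widely in level. The collagen receptor GP6 held 3959 counts in control and 5155 with As2S2 (0.48, called) and the adhesion receptor SELP 419 and 371 (-0.07, not called). Several late markers were near 0 in both groups: TUBB1 held 8 and 8 counts, GP1BB 9 and 4, PF4 1 and 0, and TREML1 and P2RY12 0 and 0.

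Transcription factors of the lineage fell in 12 of 35 cases and rose in 7 (34.3% and 20%, against 18.9% and 17.1% of all genes). GFI1, a repressor of early blood cells, went from 30.8, 32.6 and 31.5 to 8.27, 8.61 and 8.55 CPM (-1.90 ± 0.12, adjusted p = 4.90e-08, edgeR). MYB fell by 1.11, LMO2 by 1.09, ERG by 0.80 and RUNX1 by 0.51, and TAL1 and KLF10 rose by 0.58 and 0.81. The risers were 3 without control replicate 3 or As2S2 replicate 2, and 4 without control replicate 1 or As2S2 replicate 3. GATA1 stood at 101, 128 and 95.9 CPM in control and 91.5, 114 and 106 with As2S2, and was not called (-0.06). Without control replicate 2 and As2S2 replicate 1 together it was called higher (0.18, adjusted p = 0.00837, edgeR). Of 16 stem and progenitor markers 8 were tested. Of these, 6 fell and 0 rose (75% and 0%, against 18.9% and 17.1% of all genes). The 2 others had positive log2 fold changes, up to 0.74, without a call. The receptor KIT fell from 18.8, 15.98 and 17.7 to 5.64, 5.12 and 4.53 CPM. HOX genes fell in 10 of 19 and rose in 1, HOXB5, whose call was lost without control replicate 1 or 3 or As2S2 replicate 2 or 3. HOXA10 fell by 1.04 and HOXA9 by 0.63.

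Erythroid markers fell in 11 of 32 cases and rose in 5 (34.4% and 15.6%, against 18.9% and 17.1% of all genes). Those that fell included GYPB, ERMAP and SPTB, which encode membrane proteins of red cells (-0.96, -0.89 and -0.76). The fetal globins rose, HBG2 from 3047, 3449 and 3131 to 4209, 4678 and 4616 CPM and HBG1 by 0.84, with whole counts of either in no library. Counts for markers of other cell types stand beside the 36.0% of all genes that were called. Of 20 monocyte genes 9 were tested, 2 rose and 3 fell, among them FCGR1A (-2.16, whole counts in no library). Both risers, CSF1R (0.73) and CD68 (0.25), lost their call without control replicate 1 or 3 or As2S2 replicate 2 or 3 (adjusted p 0.0575 to 0.219, edgeR). The fall of CD86 (-1.41) was lost when any 1 of the control replicates or As2S2 replicate 3 was left out (adjusted p 0.0506 to 0.118, edgeR). Of 19 granulocyte and mast cell genes 10 were tested, with 1 up and 1 down. Lymphoid markers were tested in 6 of 20 cases (2 up, 1 down) and endothelial and stromal markers in 8 of 18 (2 up, 1 down). The neutrophil enzyme MPO held 2 counts in control and 0 with As2S2. Monocyte markers took 0.0343% to 0.0364% of the counts in control and 0.0354% to 0.0402% with As2S2. Granulocyte and mast cell markers took 0.0212% to 0.0222% and 0.0286% to 0.0287%. Lymphoid markers took 0.0134% to 0.0143% and 0.00886% to 0.0102%, and endothelial and stromal markers 0.0457% to 0.0507% and 0.0562% to 0.0628%. Granulocyte, lymphoid and endothelial shares did not overlap between groups, but a share follows the most abundant members. Mean log2 CPM of the 6 tested lymphoid markers, minus the control mean, went the other way. It was -0.167 to 0.281 in control and 0.735 to 1.02 with As2S2. For granulocyte and endothelial markers that mean overlapped between groups. For the 9 tested monocyte markers it did not, although their shares of the counts overlapped. It was -0.0514 to 0.0507 in control and -0.433 to -0.213 with As2S2. The part of these lists in the results was not tested.

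**Figure D4:**
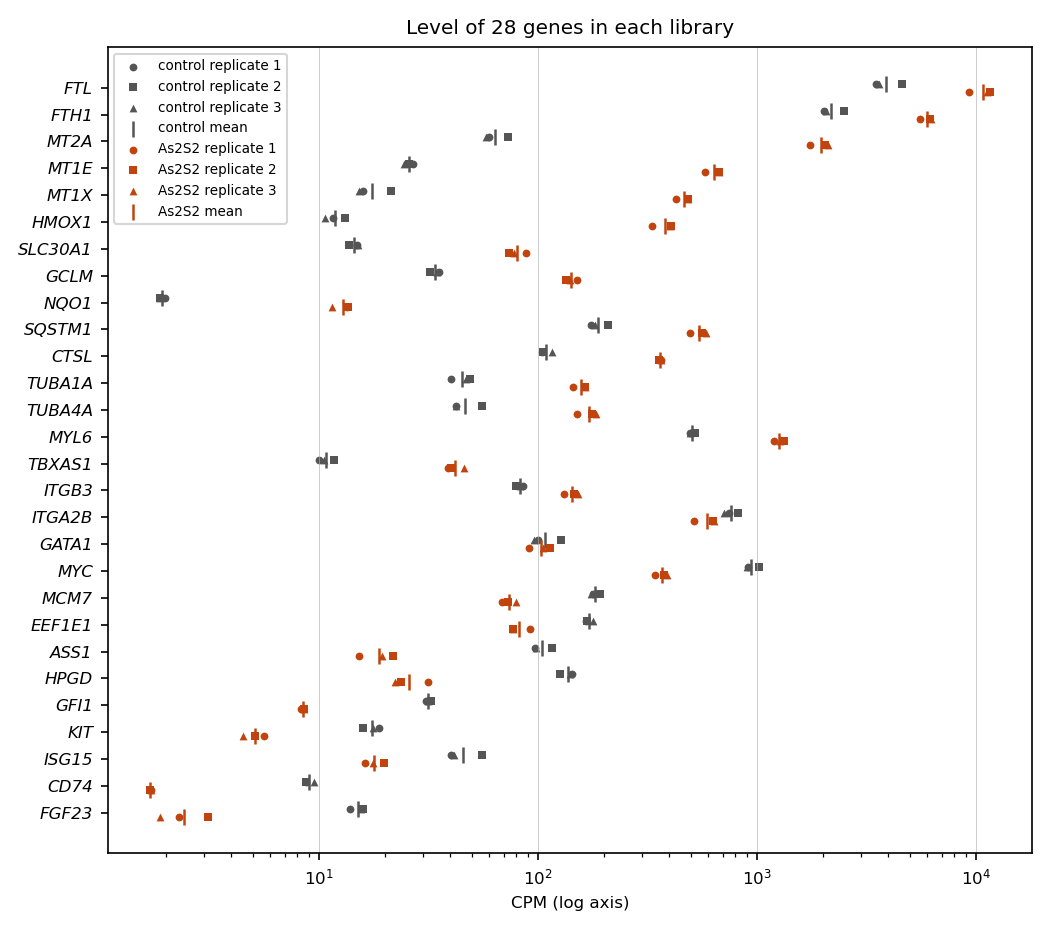
CPM (log axis) of 28 genes in each of the 6 libraries, with group means as bars. Groups are far apart for the metallothioneins and HMOX1, and overlap only for GATA1.

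In the fit of 6 libraries, few signalling genes of the pathway in the series title were called as transcripts. Of 32 genes for SRC family kinases, RAS, RAF, MEK and ERK 3 rose and 4 fell. These are 9.38% and 12.5%, against 17.1% and 18.9% of all genes, and the counts depended on the libraries kept. SRC rose from 32.7, 34.1 and 31.0 to 45.0, 59.3 and 57.3 CPM (0.72 ± 0.12, adjusted p = 0.000289, edgeR), and the adaptor SHC1 by 0.69. Its relative LYN fell by 0.38. MAP2K1 (0.17), MAP2K2 (0.14) and MAPK3 (0.24) were not called. Without control replicate 2, MAP2K2 (0.28, adjusted p = 0.0317, edgeR) and MAPK3 (0.39, adjusted p = 0.00928, edgeR) were called. List members called were then 5 up and 8 down, where 19.5% and 21.4% of all genes were called. Without both control replicate 2 and As2S2 replicate 1 they were 9 up and 8 down, where 26.7% and 26.3% of all genes were called. ABL1 and BCR, the genes joined in this kind of leukaemia, each rose by 0.42. Counts per gene cannot tell reads of a joined transcript from those of the separate genes.

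Of 35 targets and feedback inhibitors of ERK 11 rose and 7 fell (31.4% and 20%, against 17.1% and 18.9% of all genes). The share that fell was thus near that of all genes. EGR1, an immediate early factor, fell from 72.2, 79.7 and 63.2 to 22.2, 28.1 and 29.4 CPM (-1.43 ± 0.12, adjusted p = 1.54e-06, edgeR), and its relative EGR3 by 1.41. DUSP5, a nuclear ERK phosphatase, rose from 38.1, 37.5 and 37.3 to 90.9, 106 and 99.3 CPM, and DUSP4 by 1.90 from 0.547, 0.542 and 0.564 CPM. The cytosolic ERK phosphatase DUSP6 fell by 0.50 (179, 183 and 178 to 125, 127 and 131 CPM). Feedback inhibitors of the SPRY and SPRED families went both ways, SPRY1 by -0.88 and SPRED3 by 1.75. Of 36 genes of thrombopoietin and cytokine receptor signalling 11 rose and 7 fell (30.6% and 19.4%, the latter again near the share of all genes). SOCS3, a feedback inhibitor, rose from 35.8, 41.9 and 37.6 to 91.9, 107 and 104 CPM and CISH by 0.71, and STAT5B fell by 0.48.

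MYC, a driver of ribosome production, and many genes for making proteins fell. MYC stood at 918, 1020 and 900 CPM in control and 345, 377 and 388 with As2S2, 2.56-fold lower (-1.36 ± 0.08, adjusted p = 5.11e-08, edgeR). Of 23 cytosolic tRNA synthetases and their scaffold proteins 18 fell and 0 rose (median -0.43), and 11 fell without As2S2 replicate 3. EEF1E1, a scaffold of the synthetase complex, went from 166, 168 and 179 to 92.4, 77.3 and 77.4 CPM, and FARSB fell by 1.01. Of 41 ribosome biogenesis genes 24 fell and 0 rose, among them POLR1B of RNA polymerase I (-0.75) and NOP14 (-0.85). GTF3A, the factor for 5S ribosomal RNA, fell by 0.96. Cytosolic ribosomal proteins changed little (80 tested, 3 up and 12 down, median -0.01). Leaving out 1 library moved those that rose to between 1 and 11, and those that fell to 7, 4 and 3 without control replicate 1, As2S2 replicate 2 and As2S2 replicate 3. Those of mitochondrial ribosomes fell in 21 of 78 cases and rose in 2. Without As2S2 replicate 2, 12 of them fell, and 7 and 6 rose without control replicate 2 and As2S2 replicate 1. Of 23 small nucleolar RNA host genes 12 fell and 2 rose, SNHG1 from 448, 461 and 508 to 203, 192 and 198 CPM. Serine, glycine and folate genes fell in 10 of 20 cases and rose in 0, CBS from 375, 435 and 381 to 239, 277 and 270. Purine and pyrimidine synthesis genes fell in 10 of 26 cases, DHODH by 0.94 and PPAT by 0.84.

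**Figure D5:**
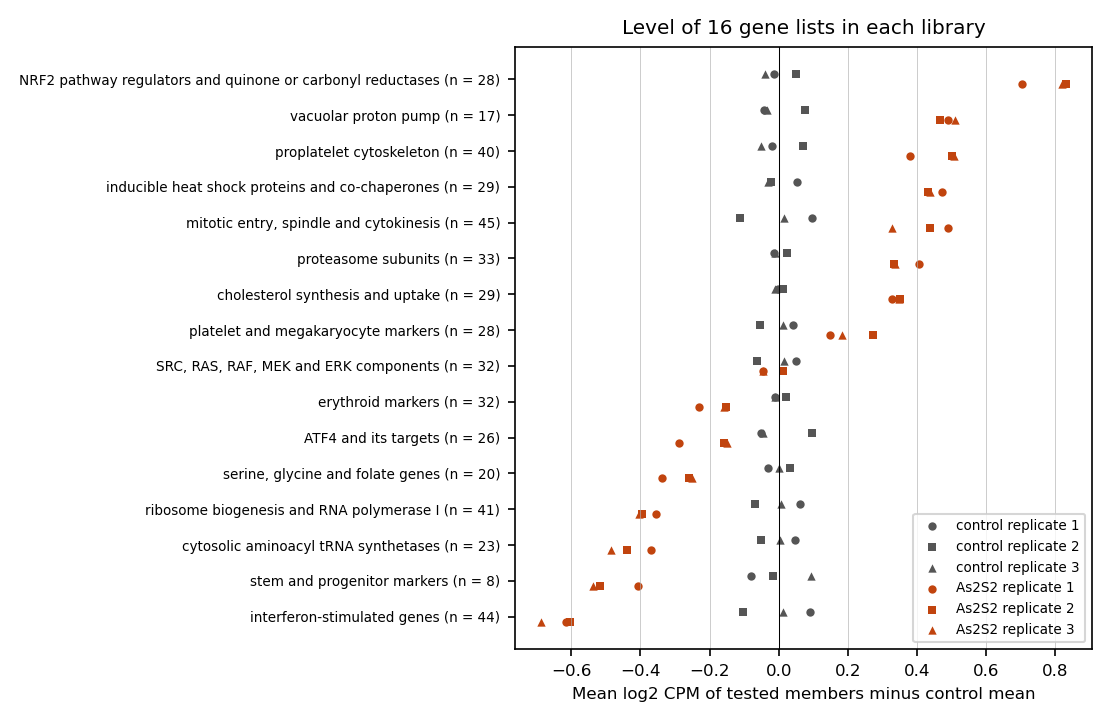
Mean log2 CPM of the tested members of 16 gene lists in each library, minus the mean of the control libraries. The SRC, RAS, MEK and ERK list overlaps between groups, and the others shown do not. The 16 lists were picked, and several lists not shown overlap as well, among them arsenic handling and DNA repair.

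Of 45 mitosis genes 28 rose and 0 fell (median 0.43). CCNB1, the mitotic cyclin, went from 132, 131 and 132 to 275, 220 and 224 CPM (0.86 ± 0.09, adjusted p = 1.14e-05, edgeR), and PLK1 rose by 0.70 and CDCA8 by 0.78. The cell cycle homology element TTTGAA stood in 28 of 39 promoters of the list and in 9.80% of all promoters, and the box CCAAT in 31 of 39 and 37.2%, both strands searched. Of 42 replication genes 14 rose and 5 fell (33.3% and 11.9%, against 17.1% and 18.9% of all genes). Without As2S2 replicate 2, 9 rose. The number down was 8 without control replicate 2 and 3 without control replicate 1 or 3 or As2S2 replicate 3. MCM7, a subunit of the replicative helicase, fell from 180, 193 and 176 to 68.8, 72.9 and 79.7 CPM, whereas MCM4 and MCM5 rose by 0.37 and 0.43. The primase subunits parted as well, PRIM1 by -1.10 and PRIM2 by 0.73. The cyclin CCND3 rose from 150, 180 and 144 to 365, 450 and 437 CPM and the inhibitor CDKN1A from 28.1, 37.9 and 30.3 to 64.8, 78.8 and 77.6, while CDKN2B fell by 1.38. Among 34 DNA repair genes 2 rose and 2 fell, with 5 up without As2S2 replicate 1 and 4 down without control replicate 2. Of 26 genes of the BCL2 family and caspases 9 rose and 1 fell, with 5 up without control replicate 1 or As2S2 replicate 2, and BMF, a death activator, rose by 1.06.

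Of 44 genes stimulated by interferon 27 fell and 3 rose (median -0.64). They encode antiviral effectors. MX2 went from 3.53, 3.52 and 2.96 to 0.269, 0.370 and 0.552 CPM, 8.31-fold lower (-3.05 ± 0.31, adjusted p = 6.06e-06, edgeR). MX2 passed the count filter only through the control libraries. ISG15, a ubiquitin-like protein, went from 40.0, 55.8 and 41.3 to 16.2, 19.97 and 17.8 CPM, and IFI6 fell by 1.34. STAT2, a factor that drives such genes, rose by 0.70. The promoters of ISG15 and IFI6 are shown because they carry the core of the interferon-stimulated response element, searched as GAAA, any 2 bases and GAAA on both strands (capitals).

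ISG15 (chr1:1013247-1013496, plus strand): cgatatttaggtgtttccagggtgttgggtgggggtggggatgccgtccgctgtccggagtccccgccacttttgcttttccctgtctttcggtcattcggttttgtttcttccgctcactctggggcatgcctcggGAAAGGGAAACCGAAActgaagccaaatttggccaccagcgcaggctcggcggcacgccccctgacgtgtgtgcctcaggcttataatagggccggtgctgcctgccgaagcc
IFI6 (chr1:27672193-27672442, minus strand): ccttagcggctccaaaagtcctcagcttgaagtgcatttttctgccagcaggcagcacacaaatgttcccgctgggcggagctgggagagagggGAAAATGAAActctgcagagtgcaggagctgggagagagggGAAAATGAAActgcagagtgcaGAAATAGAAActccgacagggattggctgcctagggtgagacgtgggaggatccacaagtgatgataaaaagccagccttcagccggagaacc

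ISG15 held 2 overlapping matches and IFI6 held 3. The motif stood in 21 of 33 promoters of the list that had an entry and in 2.91% of all promoters. Among genes called lower it stood in 3.28%.

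Of 25 antigen presentation genes 4 rose and 9 fell (16% and 36%, against 17.1% and 18.9% of all genes). Among the 9 were 6 of class II presentation, a grouping made after their values were seen. CD74, the chaperone of class II molecules, went from 8.80, 8.78 and 9.53 to 1.72, 1.69 and 1.71 CPM (-2.40 ± 0.17, adjusted p = 2.47e-07, edgeR). HLA-DPA1 (-2.88), HLA-DPB1 (-1.76), HLA-DRB1 (-1.42) and HLA-DRA (-1.02) fell too, all from at most 11.7 CPM. The class II regulator CIITA fell by 0.74 (adjusted p = 0.045, edgeR), a call lost without control replicate 1 or 3 or any 1 As2S2 replicate (adjusted p 0.0558 to 0.155). HLA-DMA was not called (0.05). Within class I, HLA-B was not called (-0.18) and HLA-C rose by 0.48, with whole counts of either in no library. The difference between the classes was not tested. Of 25 NF-kB genes 10 rose and 5 fell (40% and 20%), the latter 3 without control replicate 3. NFKB2 rose by 0.92, RELB by 0.84 and ICAM1 by 0.78, and the chemokine CCL2 fell from 10.4, 12.8 and 11.8 to 4.57, 5.50 and 4.86 CPM.

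Of 29 cholesterol genes 16 rose and 3 fell (median 0.44). NPC1, which passes cholesterol out of lysosomes together with NPC2, went from 46.7, 44.4 and 47.2 to 76.1, 75.2 and 80.5 CPM (0.74 ± 0.09, adjusted p = 2.71e-05, edgeR). NPC2 rose by 0.84. In the arginine and polyamine list ASS1, which makes the precursor of arginine, went from 97.4, 117 and 98.4 to 15.3, 21.9 and 19.4 CPM, 5.51-fold lower (-2.46 ± 0.13, adjusted p = 9.88e-09, edgeR). SAT1, which starts polyamine breakdown, rose by 1.11, and ODC1 fell by 0.32, a call lost without control replicate 1 or 3. HPGD, which inactivates prostaglandins, went from 144, 127 and 141 to 31.4, 23.7 and 22.4 CPM, and the retinal dehydrogenase ALDH1A1 from 124, 106 and 120 to 34.4, 23.5 and 27.8. The hormone FGF23 (-2.63) and the MYC relative MYCL (-2.49) fell. Hexokinase HK2 fell by 1.15 while 12 of 24 glycolysis genes rose, among them ENO2 by 0.81 and the lactate exporter SLC16A3 by 1.49.

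Some genes had almost no counts in 1 group, and since they were chosen for that, their values are a description without a test. DCT, an enzyme of melanin synthesis, held 0 counts in control and 19, 30 and 17 with As2S2, at least 22.6-fold higher against a floor of 3 counts over the group. CHGB, a granin of secretory vesicles, went from 1, 0 and 2 to 28, 21 and 40 counts, a ratio of 30.5 (exact Poisson 95% interval 10.1 to 151). The homeobox gene OTP went from 3 to 71 summed counts (24.4, interval 8 to 121), the F-box gene FBXO15 from 3 to 64 and ADAM18 from 2 to 51. LINC00520, a noncoding RNA, rose from 1.99, 2.49 and 2.49 to 19.01, 21.9 and 20.9 CPM, 8.85-fold. In the other direction 1 gene with no symbol, ENSG00000288710, went from 63 to 3 summed counts.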

How the data were processed

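RNA was sequenced from poly(A)-selected libraries, per the labels' protocols, and the authors deposited estimated counts per gene with symbols and TPM columns. The submitters' processing notes name fastp 0.22.0, DESeq2 and zebrafish genome builds, and the sources used here do not give the aligner, the counter or the human build. Counts were rounded to whole numbers. Genes kept by filterByExpr were scaled by TMM and tested with the quasi-likelihood test of edgeR 4.0.16 (R 4.3.3) on the 6 libraries, 3 per group, with Benjamini-Hochberg adjustment at 0.05. Standard errors are those of the log2 fold change. A count was called whole within 1e-06. The TPM values deposited by the authors set no result printed here, and log2 fold changes and p-values in the deposited table were not used. Promoters came from RefSeq.

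The members and lists were chosen with earlier results of these data known. Genes were named as the 25 highest and 25 lowest fold changes at a mean of 5 CPM or more, the 15 largest gains and losses in CPM, up to 6 members per list by adjusted p, genes with at most 3 summed counts in one group and at least 50 in the other, and fixed lineage, pathway and sensor genes. Names outside this rule were chosen after their values were seen, among them GCLC, SLC7A11, DUSP4, DUSP6, EGR3, SPRY1, SPRED3, SNHG1, HBG1, RUNX1, HLA-B, HLA-C, HLA-DRB1, MCM4, MCM5, PPBP, TFRC, SLC40A1, CIITA, GP6, SELP, HLA-DMA, HOXB5, HSPA1B and the neighbours of the metallothioneins. Some genes are not reported here by name, though they stay in the fit and in the counts of each list. Alternatives were other scalings, tools, filters and thresholds, all 9 libraries in the fit, a length correction, a replicate block and fits without single libraries.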

Additional observations from a re-analysis of the deposited data

How the results depend on the processing

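No called gene among those tested changed sign under any of the 18 alternatives. The stricter threshold and the fold change cutoff keep the fold changes of the main fit, so they could not change a sign. Genes higher and lower numbered 2534 and 2503 with RLE scaling, 2411 and 2346 with DESeq2, and 2411 and 2653 with limma-voom. Leaving out 1 library gave 1750 to 2800 higher, 1930 to 3072 lower and 3680 to 5872 called. At an adjusted p of 0.01, 1536 rose and 1618 fell, 3154 in all. At a log2 fold change of at least 1, 556 rose and 513 fell, 1069 in all. Without both control replicate 2 and As2S2 replicate 1, 3789 rose. In that setting 2 genes named here without a call in the fit of 6 libraries changed sign and were called higher, GATA1 (0.18) and HSF1 (0.13), and the cause was not tested. Leaving out 1 library gave -0.14 to 0.08 for GATA1 and -0.17 to 0.04 for HSF1. With the replicate number as a block, 6017 genes were called (2844 higher, 3173 lower). Deviations from the group means correlated at 0.184, 0.105 and -0.0905 for libraries of the same number, so the numbers were not taken to pair the samples.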

Other observations

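Histone genes rose in 15 of 29 tested cases and fell in 1 (51.7% and 3.45%, against 17.1% and 18.9% of all genes). Of 131 histone genes listed, 51 had 0 counts in all 6 libraries. The libraries were poly(A)-selected, so these counts cover only the histone RNA captured in that way. The linker histone H1-2 went from 210, 242 and 212 CPM in control to 635, 752 and 739 with As2S2 (log2 fold change 1.68 ± 0.09 SE, adjusted p = 1.68e-08, edgeR, n = 3 each). Of 31 matrix and matrix-binding genes 14 rose and 6 fell (45.2% and 19.4%), and 9 rose without As2S2 replicate 2. The collagen COL9A2 rose by 2.57, the collagen hydroxylase P4HA2 by 1.58 and the adhesive protein THBS1 by 1.32, and TIMP3, an inhibitor of matrix proteases, fell by 1.06. Among 16 clock genes 5 fell and 1 rose, with 3 down without control replicate 1 or 3 or As2S2 replicate 1 or 2. The repressor PER2 went from 19.6, 16.5 and 16.9 to 5.80, 6.61 and 5.96 CPM, and the activator BMAL1 from 4.33, 3.90 and 4.04 to 8.81, 8.14 and 6.84.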
